A study of Mus musculus with 12 samples.

Results

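The arrays compare mouse embryonic fibroblasts (MEFs) that had been pushed towards a germ cell expression pattern with the germ cells themselves, and the question is what still separated the treated fibroblasts from female E15.5 primordial germ cells (PGCs). Members were chosen by title, as the 3 samples titled OS+chem+VA5+Dnmt1 KD, here called OS-treated MEFs, and the 3 samples of E15.5 PGCs, which make 6 of the 12 samples of the series. The other 6 are 3 of untreated control MEFs and 3 of MEFs given the same treatment with another construct (OCKS-treated MEFs), of which the control MEFs show where a gene of the treated cells started from and the OCKS-treated MEFs are set beside the OS-treated ones at the end. All 12 arrays entered the fit. MEFs came from E14.5 male embryos of a cross between C57BL6/J mice with a Vasa::RFP transgene and C57BL6/J mice with an Oct4_delta_PE-GFP transgene. The OS-treated MEFs had been transfected with PiggyBac vectors for Oct4 and Sox2 behind the hCMV*1 promoter and with an siRNA against Dnmt1, the maintenance DNA methyltransferase, and were taken on day 4. "Chem" stands for tranylcypromine, BIX-01294 and DZNep, inhibitors of histone H3K4 demethylation and of H3K9 and H3K27 methylation, and "VA5" for valproic acid, a histone deacetylase inhibitor, and ALK5i, an inhibitor of the TGF-β receptor. OCKS-treated MEFs differed in carrying 1 tandem vector of Oct4, c-Myc, Klf4 and Sox2. PGCs came from genital ridges of E15.5 female embryos of an MCH x C57BL6/J cross with the Oct4_delta_PE-GFP transgene, and how they were separated from the rest of the ridge is not given in the sources used here. All groups had 3 biological replicates and an input of 100 ng of total RNA per array.

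Sex, strain, culture and tissue therefore differ between the 2 groups together with cell type and treatment, and their parts in a difference cannot be told apart. Transfection of a culture leaves cells that took up no vector in the sample, and in bulk RNA fewer cells with a transcript and less of it per cell cannot be told apart. Each level below is the log2 signal of the brightest probe of a gene, set against the array's own 75th percentile, and each difference is OS-treated MEFs minus E15.5 PGCs on that log2 scale. Testing required a signal well above background on every array of the OS group or of the PGC group, which held for 17408 of 19718 genes. The call of higher or lower needed both a Benjamini-Hochberg adjusted p under 0.001 in limma and at least a 2-fold difference. Where a group had no array with the gene above background, a fold is only a lower bound, for which each such array enters with its own signal or, if that is brighter, the dimmest signal counted as above background there.

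In female embryos of this stage germ cells are in meiotic prophase. Retinoic acid signalling switches on Stra8, homologous chromosomes are then joined along their length by the synaptonemal complex, and double-strand breaks made by the Spo11 nuclease are repaired by recombination. Many of the genes for these steps, and for the PIWI-interacting RNAs (piRNAs) that silence transposons in the germline, are held off in somatic cells by CpG methylation of their promoters or by a repressor complex of MAX, MGA, E2F6 and Polycomb-type proteins that binds the E-box CACGTG and E2F sites.

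The promoters of 4 such genes are shown because their genes ended at different distances from the germ cell level, from no difference by the test (Rhox5) to 1025-fold (Sycp1) and 1678-fold (Sycp3) below it. Each line gives the 250 bases before the start site on the strand of the gene, in lower case with CpG dinucleotides in capitals, from RefSeq on build GRCm38.p6.
Rhox5 (chrX:37754358-37754607, plus strand): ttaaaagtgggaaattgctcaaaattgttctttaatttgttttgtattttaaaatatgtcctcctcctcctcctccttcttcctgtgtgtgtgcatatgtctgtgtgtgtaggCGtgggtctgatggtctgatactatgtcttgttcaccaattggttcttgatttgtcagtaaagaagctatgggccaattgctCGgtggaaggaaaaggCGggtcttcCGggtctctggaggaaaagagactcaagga
Tex19.1 (chr11:121145893-121146142, plus strand): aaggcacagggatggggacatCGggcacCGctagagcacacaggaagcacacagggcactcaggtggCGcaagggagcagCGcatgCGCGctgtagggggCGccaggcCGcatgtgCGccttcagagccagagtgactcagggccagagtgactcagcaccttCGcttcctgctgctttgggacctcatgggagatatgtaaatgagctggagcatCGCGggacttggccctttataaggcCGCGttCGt
Sycp1 (chr3:102936101-102936350, minus strand): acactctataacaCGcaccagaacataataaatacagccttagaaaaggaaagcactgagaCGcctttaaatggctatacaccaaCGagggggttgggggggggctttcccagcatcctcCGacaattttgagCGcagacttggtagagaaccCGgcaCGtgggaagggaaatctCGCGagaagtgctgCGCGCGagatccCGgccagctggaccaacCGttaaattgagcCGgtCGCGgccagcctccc
Sycp3 (chr10:88459337-88459586, plus strand): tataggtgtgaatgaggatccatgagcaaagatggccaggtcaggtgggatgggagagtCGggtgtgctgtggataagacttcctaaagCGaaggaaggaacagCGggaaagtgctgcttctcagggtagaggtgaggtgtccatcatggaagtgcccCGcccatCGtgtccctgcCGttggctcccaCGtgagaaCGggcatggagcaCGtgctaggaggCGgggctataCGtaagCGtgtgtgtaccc
The Rhox5 window holds 4 CpGs, the Tex19.1 window 15, the Sycp1 window 17 and the Sycp3 window 12. The median is 6 over the windows of 27025 genes and 13 (quartiles 5 and 21) over those of the genes tested. The E-box CACGTG, which reads the same on both strands and appears above as caCGtg, is found 1 time before Sycp1 and 2 times before Sycp3, and these letters are in neither of the other windows. Of all windows of this length 6.05% hold it, and of those of the genes tested 7.68%. Of the 9 synaptonemal complex and axis genes tested 4 do, and of 27 genes of meiotic entry, cohesion and recombination 3. It is absent before Syce3 (-15.55), Figla (-12.30) and Dmc1 (-11.31), which lay farther below the germ cells than Sycp3. A relation between motif and distance was not tested. The E2F motif GCGGGAA, searched on both strands, is in the Sycp3 window, in 3.84% of all windows and in 5.95% of those of the genes tested. Only 122 of the 159 germ cell genes tested have a window, and 22 of these hold the E-box (18.0%). The share for all 159 is therefore not known.

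OS-treated MEFs and E15.5 PGCs differed in most genes. Of 17408 genes tested, 4260 were called higher in OS-treated MEFs (24.5%), 6330 were called lower (36.4%) and 6818 were not called. The counts of the gene lists below are to be read against these shares. Differences were often large: 2017 of the higher genes and 2000 of the lower genes differed by at least 3 on the log2 scale, against a median standard error of 0.149. Of the genes higher in OS-treated MEFs 96.0% were well above background on all 3 control arrays. For all genes tested the share was 89.0%, and for the lower genes 83.3%. A gene could enter the test through the OS arrays alone, which bears on this share. Nor does such a signal mean an unchanged level. The chemokine gene Ccl11 was above background on all 3 control arrays, and OS-treated MEFs stood 505-fold above them. For 800 of the lower genes OS-treated MEFs had no signal above background on any array, and for 246 of the higher genes the PGCs had none. Of the genes not called, 3795 were well above background on all 6 arrays with a 95% interval of the difference inside 1 on the log2 scale in either direction.

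Genes were ranked among those called and well above background on all 6 arrays, with symbols of predicted genes and clones left out. Of the 10 lowest in OS-treated MEFs 6 were meiotic genes, and the 10 highest held matrix, surface and secreted proteins. The share of meiotic genes among all genes tested was not counted. Among genes well above background on all 6 arrays, the 10 highest in OS-treated MEFs held Saa3 (14.52), an acute-phase protein, the antiprotease gene Slpi (13.28), the surface antigen gene Ly6c1 (12.38), Spp1 (12.32), Thy1 (11.66), the matrix glycoprotein gene Efemp1 (11.51), the chemokine gene Ccl2 (11.13), Gda (10.94), which deaminates guanine, the annexin gene Anxa8 (10.91) and the prolactin family gene Prl2c5 (10.75). The 10 lowest were the meiotic genes Smc1b (-11.72), Sycp3 (-10.71), Sycp1 (-10.00), Hormad1 (-9.78), Mei1 (-10.35) and Spdya (-10.55), the germ granule gene Mael (-10.21), the germ cell gene Adad1 (-9.77), Lypd4 (-10.41) and the scavenger receptor gene Stab2 (-9.67). In each of these 20 genes the OS and PGC arrays did not overlap, which was part of the rule that chose them. Among genes that 1 group lacked, OS-treated MEFs gave no signal above background for the meiotic cyclin gene Ccnb3 (at least 2159-fold lower) and the testis gene Dmrtc2 (at least 5014-fold lower), and PGCs none for the eosinophil chemokine gene Ccl11 (at least 3089.9-fold) and the membrane glycoprotein gene Gpnmb (at least 3144-fold).

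**Figure D1:**
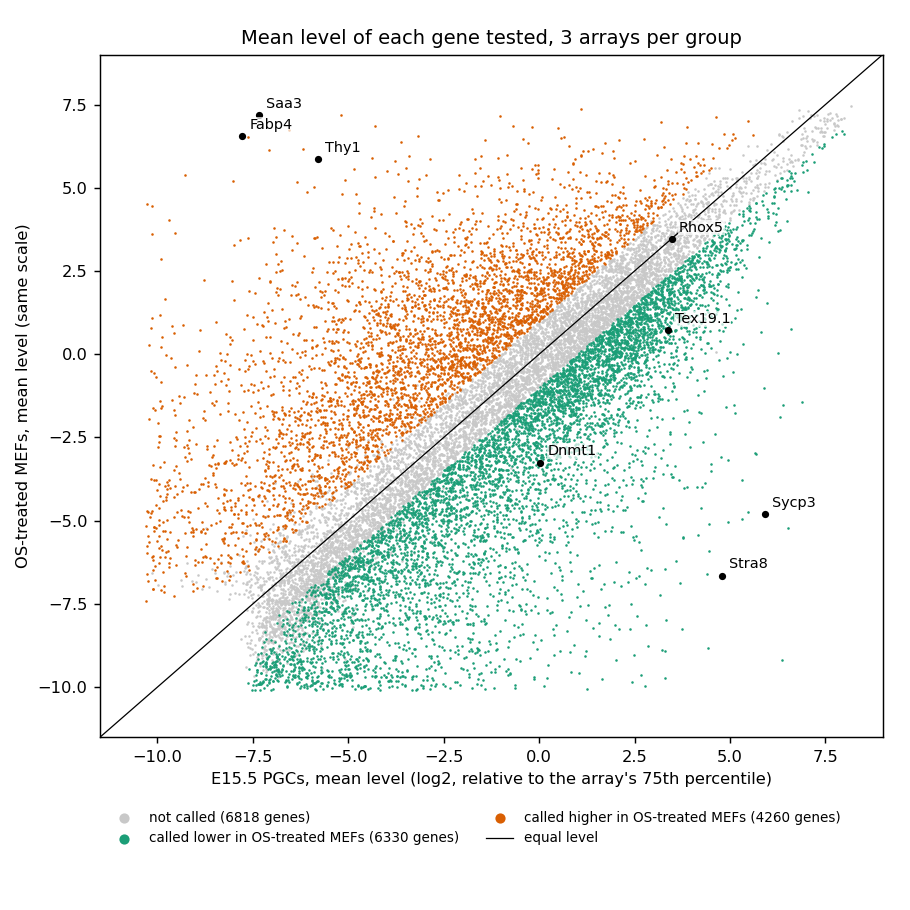
Mean level of each of the 17408 genes tested in E15.5 PGCs (horizontal axis) and OS-treated MEFs (vertical axis), 3 arrays per group, on the log2 scale relative to the 75th percentile of each array, with the line of equal level. The 4260 genes called higher in OS-treated MEFs lie above it and the 6330 called lower lie below it, with Rhox5 on the line and Sycp3 and Stra8 among the points farthest below it.

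The balance of the 2 directions rests on the scaling. The median difference of all genes was -0.57 at the 75th percentile and 0.67 when the arrays were scaled to 8 spike-in probes, where 7103 genes were called higher and 2773 lower, so that 71.9% of called genes were higher against 40.2%. Under all 6 scalings tried, 4044 of the higher calls (94.9%) and 2375 of the lower calls (37.5%) were made. Lower calls with a small difference are thus open to the scaling, and spike-in values are given below for part of the genes and lists that it changes. No slide held OS and PGC arrays together, so slide and group cannot be told apart. Treating slides as a random block left 4204 genes called higher and 6197 lower.

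Markers of sex and cell type were set against the labels. Eif2s3y, a translation factor gene of the Y chromosome, stood at 1.87, 1.89 and 2.08 on the OS arrays and at -4.41, -4.43 and -4.17 on the PGC arrays, where it was still well above background, and the Y-linked genes Ddx3y and Uty were well above background on all OS arrays and on no PGC array. Xist, expressed from the inactive X of female cells, did not separate the OS and PGC arrays, and its values are given with the X chromosome. Of 41 genes of fibroblast and mesenchyme identity 36 were higher in OS-treated MEFs. The germ cell markers Dazl, Ddx4 and Sycp3 were well above background on all PGC arrays and lower on all OS arrays. Dppa3, Stra8, Kit and Mael went the same way. Pou5f1, a delivered factor, went the other way, by 1.06 without a call and by 2.31, called higher, with spike-in scaling. Nanos3 was called lower (-1.14), but with spike-in scaling it differed by 0.10 and was not called. Spots well above background made up 71.9% to 85.6% of each array, and 0 spots were saturated.

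Most germ cell genes were lower in OS-treated MEFs. Over 8 lists, the pluripotency genes included, with 159 genes tested, 132 were called lower than in E15.5 PGCs (83.0%, against 36.4% of all genes), 18 were not called and 9 were higher, and the median difference was -5.15 against -0.57. Of the 159 genes, 158 were well above background on all PGC arrays, 110 on all OS arrays and 87 on all control arrays. Of all 17408 genes tested it was 16876 on all PGC arrays, 15610 on all OS arrays and 89.0% on all control arrays. On no array of OS-treated MEFs was a signal above background found for 34 of the 159, against 1001 of all genes tested. Such genes could enter the test only through the PGC arrays.

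Genes of the synaptonemal complex had the lowest median difference of the 33 lists. All 9 genes tested were called lower, with a median difference of -8.67, and all 9 were so under every scaling. Sycp3, a protein of the lateral element, stood at -5.14, -4.65 and -4.62 on the OS arrays and at 6.09, 5.72 and 5.90 on the PGC arrays. The groups did not overlap, and the difference was -10.71 (standard error 0.157, adjusted p = 5.46e-12, limma), or 1678-fold. Sycp1, which forms the transverse filaments that zip homologues together, stood at -5.79, -4.87 and -4.51 in OS-treated MEFs and at 5.11, 4.80 and 4.93 in PGCs, a difference of -10.00 (standard error 0.43, adjusted p = 2.62e-09). In control MEFs no array showed Sycp1 above background, and OS-treated MEFs were at least 7.76-fold above them (adjusted p = 2.86e-06, limma), so that the gene was measurable in the treated cells and still 1025-fold below the germ cells. Syce3, a central element protein, had no signal above background in OS-treated MEFs (-9.17, -8.90 and -9.48) against 6.43, 6.32 and 6.36 in PGCs, which makes it at least 19341-fold lower. The axis gene Hormad1 lay -9.78 and the central element gene Syce2 -6.91 from the PGC level.

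Genes of meiotic entry, cohesion and recombination were lower in 35 of 36 cases, with a median difference of -7.96, and 33 of them were lower under every scaling. Stra8, the retinoic acid target that licenses meiotic entry, was well above background on only 2 of the 3 OS arrays, at -7.29, -6.30 and -6.36, and on all PGC arrays, at 5.22, 4.55 and 4.59 (difference -11.44, standard error 0.344, adjusted p = 2e-10). Smc1b, the meiotic cohesin subunit, stood at -5.20, -5.16 and -5.26 against 6.74, 6.37 and 6.43, or 3371-fold lower. Both genes separated the groups by more than 10 on the log2 scale, with replicates of a group within 1 of each other. In OS-treated MEFs 10 genes of the list gave no signal above background, among them Spo11, which makes the meiotic breaks (at least 942-fold lower), the strand exchange recombinase gene Dmc1 (at least 2272-fold) and Terb1 and Majin, which tether telomeres to the nuclear envelope. Mei1 (-10.35) and Prdm9 (-7.88), the methyltransferase that places breaks, were above background on all OS arrays. The repair gene Brca2 (-6.49), which somatic cells also use, was lower too. Spdya, the CDK activator of meiotic telomeres, stood at -6.76, -6.69 and -7.15 on the OS arrays against 4.05, 3.37 and 3.62 on the PGC arrays.

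Genes of the piRNA pathway and germ granules were lower in 23 of 24 cases, with a median difference of -6.54, and 21 were lower under every scaling. Mael, a germ granule protein needed for transposon silencing, stood at -5.01, -4.52 and -4.71 in OS-treated MEFs and at 5.61, 5.37 and 5.40 in PGCs (difference -10.21, standard error 0.288, adjusted p = 1.34e-10). Piwil2, a PIWI protein that carries piRNAs, stood at -5.82, -5.82 and -5.52 against 0.65, 0.69 and 0.74, and Gtsf1, a partner of PIWI proteins, at -1.42, -1.05 and -1.56 against 3.55, 3.63 and 3.58. The last was nearest to the germ cells of these 3, 30.5-fold below them. Against control MEFs 12 of 18 genes of this list were higher in OS-treated MEFs and 0 were lower (limma, with 10.7% of all genes higher and 13.4% lower in that comparison, which shares its OS arrays with the one here). Tdrd5, Tdrd12, Tdrd1 and Tdrd6 of the Tudor family, Piwil1 and the piRNA methyltransferase gene Henmt1 had no signal above background on any OS array. Dnmt3l, the cofactor of de novo methylation, was the 1 gene of the list that was higher, by 2.38.

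Regulators of germ cell RNA went the same way in 17 of 21 cases (median difference -4.75), or 14 with spike-in scaling, with wide differences between members. Ddx4 (Vasa), the RNA helicase of germ granules, stood at -3.09, -3.02 and -3.35 in control MEFs, at -2.93, -3.48 and -3.46 in OS-treated MEFs and at 4.60, 4.43 and 4.49 in PGCs. It did not differ by the test from control MEFs (-0.13, adjusted p = 0.506) and lay 222-fold below the germ cells (adjusted p = 3.68e-11, limma). Dazl, which promotes translation of germ cell mRNAs, was above background on no control array, stood at -3.44, -2.66 and -2.22 on the OS arrays and at 4.21, 3.70 and 3.91 on the PGC arrays. OS-treated MEFs were at least 37.7-fold above control MEFs (adjusted p = 2.83e-07) and 105-fold below PGCs (difference -6.71, standard error 0.436, adjusted p = 7.49e-08). Tex19.1, a placental and germline protein that restrains retrotransposons, came closer: it was above background on no control array, stood at 0.40, 0.69 and 1.10 in OS-treated MEFs and at 3.33, 3.45 and 3.31 in PGCs. The difference was -2.63 (standard error 0.303, adjusted p = 9.68e-06, limma), or 6.21-fold. With spike-in scaling it was -1.39 and not called. Meioc, which sustains meiotic prophase, was not above background in OS-treated MEFs and at least 3003-fold lower, whereas Zar1, a maternal RNA-binding protein, was higher by 1.89.

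Genes of germ cell specification were divided. Of 21 tested, 13 were lower, 7 were not called and 1 was higher, with a median difference of -2.64, and with spike-in scaling 10 were lower and 3 higher. Dppa3 (Stella), a marker of nascent PGCs that protects methylation in the zygote, had no signal above background on the OS arrays (-8.38, -8.00 and -9.27) against -1.37, -2.05 and -1.87 on the PGC arrays, and was at least 68.8-fold lower (adjusted p = 2.9e-08). Kit, the receptor that PGCs need to survive and migrate, stood at -5.37, -5.06 and -5.55 against 0.53, 0.80 and 0.69, or 63.9-fold lower. Both were lower on every OS array than on any PGC array. Prdm1 (Blimp1), a regulator of the germ cell fate, stood at -2.73, -2.87 and -3.10 in OS-treated MEFs and at -1.89, -2.24 and -2.09 in PGCs, which did not pass (-0.83, adjusted p = 0.00394) and was 0.42 with spike-in scaling. Nanos3, which protects migrating PGCs from death, was lower by the 75th percentile (-1.14, adjusted p = 2.74e-07, limma) and not by the spike-ins (0.10). The call was also lost with quantile normalization (-0.93), normexp (-0.89) and median scaling (-0.55). Ifitm3, a PGC surface marker that is also an interferon-stimulated gene, was higher in OS-treated MEFs by 4.38.

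Oocyte genes were lower in 17 of 22 cases (median difference -3.12), or 11 with spike-in scaling. Figla, the transcription factor of primordial follicle formation, stood at 2.77, 2.55 and 2.65 in PGCs and gave no signal above background in OS-treated MEFs, which makes it at least 1474-fold lower (adjusted p = 1.98e-11). Nobox, another such factor, was at least 138-fold lower. The zona pellucida gene Zp3 (-1.66) and the growth factor gene Gdf9 (-1.17), which belong to later oocytes, differed little, and neither was called with spike-in scaling (-0.42 and 0.07).

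X-linked germline genes were lower in 17 of 18 cases (median difference -5.39). Tktl1, a transketolase-like gene, was not above background in OS-treated MEFs and at least 2307-fold lower, and the recombination gene Tex11 lay at -9.60. Of the Rhox homeobox genes, Rhox6 stood at -3.82, -3.31 and -3.14 in OS-treated MEFs and at 1.51, 1.39 and 1.42 in PGCs, and Rhox9 at -3.39, -3.05 and -3.40 against 2.53, 2.24 and 2.32. Both were higher than on the control arrays (-7.91, -7.10 and -7.26 for Rhox6, -8.00, -6.40 and -6.37 for Rhox9) and both were called lower than in PGCs, with differences of -4.86 and -5.64.

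**Figure D2:**
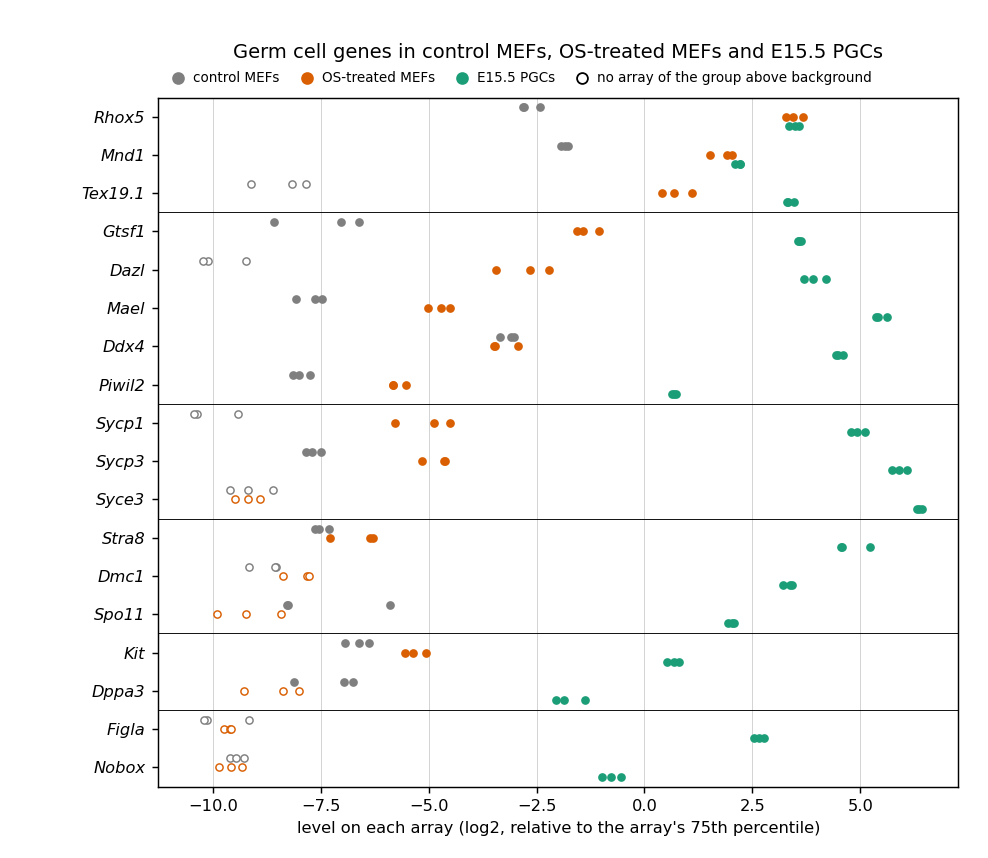
Level of 18 germ cell genes on each of the 3 arrays of control MEFs, OS-treated MEFs and E15.5 PGCs (horizontal axis, log2 relative to the 75th percentile of the array), with open points where no array of a group was above background. OS-treated MEFs meet the PGCs at Rhox5, come near them at Mnd1 and Tex19.1, lie between the other groups at Dazl, Sycp1 and Gtsf1, and are not above background for Syce3, Dmc1, Spo11, Dppa3, Figla and Nobox.

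A few germ cell genes were not told apart from the germ cell level by the 75th percentile. Rhox5, a homeobox gene of the reproductive tract and placenta, stood at -2.43, -2.81 and -2.79 in control MEFs, at 3.29, 3.45 and 3.67 in OS-treated MEFs and at 3.58, 3.35 and 3.48 in PGCs. The OS and PGC arrays overlapped, the 95% interval of the difference ran from -0.35 to 0.35 (adjusted p = 0.995), and OS-treated MEFs were 70.7-fold above control MEFs (adjusted p = 1.21e-09, limma). Mnd1, a cofactor of strand exchange in recombination, stood at -1.84, -1.78 and -1.93, 1.52, 1.90 and 2.04 and 2.22, 2.21 and 2.09 in the same order of groups. Its OS arrays all lay below its PGC arrays by a small margin, the interval of the difference ran from -0.73 to 0.02, and the call was not made (adjusted p = 0.0699). With spike-in scaling the differences of Rhox5 and Mnd1 were 1.24 and 0.89. Dnd1, an RNA-binding protein that protects germ cells, differed by 0.17 (interval -0.14 to 0.47), and Ifitm1, a PGC surface marker, by 0.92 (interval -0.00 to 1.83). With spike-in scaling both were called higher (1.41 and 2.16). By the 75th percentile the 4 genes were not called, which does not show that they were equal.

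Among the enzymes of DNA methylation was the target of the siRNA. Dnmt1 stood at -1.20, -0.98 and -1.36 in control MEFs, at -3.00, -3.26 and -3.50 in OS-treated MEFs and at 0.12, -0.05 and 0.03 in PGCs. It was 4.2-fold below control MEFs (adjusted p = 2.5e-06) and 9.74-fold below PGCs (adjusted p = 1.37e-08, limma), with no overlap between groups. Its recruiting partner Uhrf1 differed by -2.30 (-1.06 with spike-in scaling, not called under every scaling), the de novo enzyme gene Dnmt3b by -2.63, and Hells, the remodeller that aids methylation, by -6.43. Apobec1, a cytidine deaminase, was higher by 6.14. Of 17 genes of this list 8 were lower and 5 higher, with a median difference of -0.62, close to the -0.57, 36.4% lower and 24.5% higher of all genes. With spike-in scaling 3 were lower and 7 higher (median 0.62).

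Repressors of germline genes and of histone marks were lower in 16 of 28 cases and higher in 3 (median difference -1.37), against 36.4% and 24.5% of all genes. With spike-in scaling 9 were lower and 7 higher. The Polycomb gene Phc1 stood at -1.99, -2.22 and -2.23 in OS-treated MEFs against 2.18, 2.27 and 2.39 in PGCs, and Setdb1, an H3K9 methyltransferase that silences retroviruses, at -0.38, -0.45 and -0.67 against 3.15, 2.86 and 3.12. Each was lower under every scaling, by -4.42 and -3.54. Ezh2, the H3K27 methyltransferase, was lower under every scaling too (-2.50), as was Mga (-2.88), while its partner Max (0.64, adjusted p = 5.17e-05) did not reach the 2-fold minimum except with spike-in scaling (1.88) and E2f6 was higher (1.28). Ehmt2 (G9a), the enzyme that BIX-01294 inhibits, was higher by 1.15. Atf7ip, a cofactor of Setdb1, differed by 0.07 (interval -0.15 to 0.29), and with spike-in scaling it was called higher (1.31).

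Pluripotency genes, which PGCs share with stem cells, were lower in 11 of 20 cases and higher in 5 (median difference -1.52), against 36.4% and 24.5% of all genes. With spike-in scaling 7 were lower and 6 higher (median -0.28). Of the delivered factors, Pou5f1 (Oct4) stood at -7.63, -7.05 and -6.46 in control MEFs, at -1.90, -0.98 and -0.98 in OS-treated MEFs and at -2.26, -2.44 and -2.35 in PGCs. It was 54.2-fold above control MEFs (adjusted p = 4.79e-07) and not called against PGCs (1.06, adjusted p = 0.0227), although it was called higher with spike-in scaling (2.31) and with normexp (1.29). Sox2 stood at -6.33, -5.40 and -4.14 against -4.63, -5.34 and -5.50 (-0.14, interval -1.56 to 1.29, and 1.11 with spike-in scaling), with a spread in OS-treated MEFs that leaves the comparison open in both directions. Against control MEFs Sox2 differed by 0.21 on the log2 scale, and Pou5f1 by 5.76. Whether either probe lies in the delivered reading frame was not tested. Zfp42 (Rex1), a stem cell marker, was not above background in OS-treated MEFs and at least 337-fold lower, the nuclear receptor gene Esrrb was lower (-3.31), and Nanog differed by -0.83 without reaching the 2-fold minimum (0.42 with spike-in scaling). Klf4 (3.18), Myc (7.64), Tbx3 (5.73) and Lefty1 (7.24, above background on 2 PGC arrays) were higher. Myc, a growth regulator that fibroblasts use, stood at 2.13, 1.89 and 1.67 on the OS arrays and at -5.51, -5.88 and -5.83 on the PGC arrays.

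Fibroblast genes were high in OS-treated MEFs and low in PGCs. Of 41 genes of fibroblast and mesenchyme identity 36 were higher than in PGCs and 2 lower (median difference 4.86), and all 36 were higher under every scaling. Thy1, a fibroblast surface glycoprotein, stood at 6.48, 6.21 and 6.39 in control MEFs, at 6.18, 5.88 and 5.54 in OS-treated MEFs and at -5.71, -6.00 and -5.67 in PGCs. It differed from the PGCs by 11.66 (standard error 0.227, adjusted p = 1.84e-11, limma) and from control MEFs by -0.50 (adjusted p = 0.0715). Prrx1, a limb mesenchyme transcription factor, stood at 3.33, 3.07 and 2.62 against -7.36, -6.90 and -6.39 in PGCs, a 948-fold difference. The surface antigen gene Ly6a (14.14) and the calcium-binding protein gene S100a4 (9.48) were among the highest, and the former was above background on 2 PGC arrays. The transcription factor genes Tcf21 (above background on 1 OS array, -3.66) and Msx1 (-1.53) were the exceptions that were lower, and neither kept its call under every scaling (-2.42, called, and -0.29, not called, with spike-in scaling).

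Nearly all genes of the extracellular matrix were higher, with 37 of 38 genes higher, 0 lower (limma) and a median difference of 5.68. Col1a1, the main fibrillar collagen, stood at 6.50, 6.06 and 6.10 in control MEFs, 4.74, 4.24 and 4.12 in OS-treated MEFs and -0.37, 0.11 and 0.14 in PGCs, so that a 3.62-fold loss against control MEFs (adjusted p = 0.000435) left it 21.2-fold above the germ cells (adjusted p = 1.99e-07). Spp1 (osteopontin) was higher by 12.32, and the stromelysin gene Mmp3, not above background in PGCs, by at least 10561-fold. Lox, which crosslinks collagen, was at least 163-fold higher. The 1 matrix gene that was not called was Fmod (1.37), which was called higher with spike-in scaling (2.61).

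Contractile and TGF-β response genes, the targets of the pathway that ALK5i blocks, were divided. Of 23 tested, 15 were higher than in PGCs, 2 lower and 6 not called (median difference 3.69), and against control MEFs 22 of 23 were lower and 0 higher (limma, shared OS arrays). Tagln, an actin-binding protein of smooth muscle, stood at 7.72, 7.07 and 7.18 in control MEFs, at 0.93, 0.85 and 0.29 in OS-treated MEFs and at 0.42, 0.25 and 0.32 in PGCs. It did not differ by the test (0.36, interval -0.43 to 1.14, adjusted p = 0.352). Acta2, smooth muscle actin, went from 7.85, 7.41 and 7.44 to 0.28, 0.55 and 0.09 and was still 9.33-fold above the PGC arrays (-3.23, -2.82 and -2.70, adjusted p = 4.37e-05). Cnn1 (calponin), at -3.51, -3.13 and -3.90, lay below the PGC arrays at -1.96, -1.73 and -1.79 without a call (adjusted p = 0.0281).

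Hox genes, which record position along the body axis and are kept low in PGCs, were higher in 27 of 38 cases and lower in 3 (median difference 3.04). Hoxa11, a limb gene, stood at 1.48, 1.18 and 1.43 against -6.62, -6.74 and -6.82, a difference of 8.09 (standard error 0.119, adjusted p = 5.52e-12). Hoxd1 was the opposite: it was above background on no array of OS-treated or control MEFs and at least 74.6-fold lower than in PGCs, where it stood at -1.60, -1.56 and -1.64. Hoxd8 (-3.02) was lower as well. Epithelial adhesion genes, part of which PGCs express, were lower in 7 of 16 cases and higher in 2, against 36.4% and 24.5% of all genes, and with spike-in scaling 5 were lower and 3 higher. Epcam (above background on 1 OS array) lay at -5.93 and Cdh1 (E-cadherin) at -4.60, and the tight junction gene Cldn3 at 7.14 from PGCs and 5.94 from control MEFs.

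Genes of innate immunity were higher in OS-treated MEFs than in PGCs and higher than in control MEFs. All 34 interferon-stimulated genes tested were higher in OS-treated MEFs than in PGCs, with a median difference of 7.61 (and all 34 higher than in control MEFs, on the same OS arrays), and all but Oas1g were so under every scaling. Ifit1, an antiviral RNA-binding protein, stood at -2.77, -1.46 and -1.68 in control MEFs, at 3.44, 3.20 and 3.17 in OS-treated MEFs and at -8.07, -7.68 and -8.21 in PGCs, where it was above background on 1 array. The groups were far apart in that order, with 11.26 between OS-treated MEFs and PGCs (standard error 0.291, adjusted p = 8.22e-11) and 5.24 between OS-treated and control MEFs (adjusted p = 1.48e-07, limma). Rsad2 (viperin), an inhibitor of viral replication, stood at 2.25, 2.43 and 2.17 against -7.44, -7.02 and -7.56 in PGCs. In antigen presentation 15 of 16 genes were higher. The immunoproteasome gene Psmb8 differed by 9.33 and B2m, the light chain of MHC class I, by 5.89. H2-Q4, an MHC class I gene, was the 1 gene that was lower (-2.22), and with spike-in scaling it was not called (-0.98). Strain differs between the groups, and sequence differences under an MHC probe cannot be told apart from expression.

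Acute-phase and complement genes were higher in 23 of 24 cases and lower in 0 (limma, median difference 7.25). Saa3, a serum amyloid protein, stood at -5.27, -5.77 and -5.09 in control MEFs, at 7.63, 7.13 and 6.76 in OS-treated MEFs and at -6.80, -7.60 and -7.63 in PGCs, a difference of 14.52 from the PGCs (standard error 0.365, adjusted p = 7e-11). Lcn2, an iron-trapping lipocalin, stood at -3.87, -3.38 and -3.66, 6.73, 6.40 and 5.998 and -3.94, -3.54 and -3.40 in the same order, so that control MEFs and PGCs overlapped and OS-treated MEFs stood apart. The antiprotease gene Serpina3n was at least 5550.2-fold and the metalloreductase gene Steap4 at least 798-fold above the PGCs, which had neither above background. Of 22 chemokine and cytokine genes 18 were higher, with Cxcl5, which attracts neutrophils, at least 9213-fold and Ccl2, which attracts monocytes, 11.13 on the log2 scale. Il11 was lower (-1.85), though not called with spike-in scaling (-0.60).

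**Figure D3:**
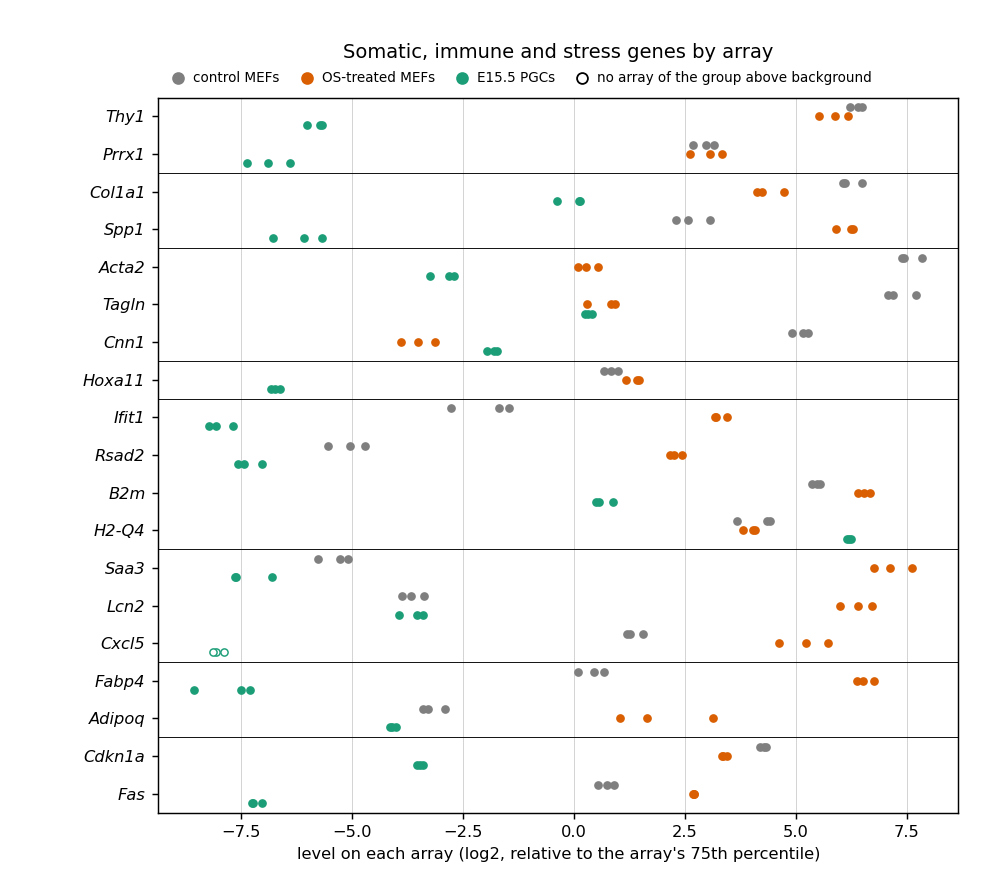
Level of 19 fibroblast, matrix, contractile, Hox, immune, adipocyte and p53 pathway genes on each of the 3 arrays of control MEFs, OS-treated MEFs and E15.5 PGCs (horizontal axis, log2 relative to the 75th percentile of the array), with open points where no array of a group was above background. Thy1 and Prrx1 hold the control level far above the PGCs, Tagln drops to the range of the PGCs and Cnn1 below it, and Ifit1, Saa3, Lcn2 and Fabp4 lie above both other groups.

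Adipocyte genes were higher in 12 of 16 cases and lower in 0 (limma, median difference 5.33). Fabp4, a fatty acid carrier, stood at 0.69, 0.45 and 0.09 in control MEFs, at 6.52, 6.39 and 6.76 in OS-treated MEFs and at -7.50, -7.30 and -8.55 in PGCs, and Adipoq, the hormone adiponectin, at 1.66, 1.05 and 3.14 against -4.10, -4.13 and -4.01 in the last pair. Fabp4, above background on 2 PGC arrays, differed from the PGCs by 14.34 (adjusted p = 2.11e-11) and Adipoq by 6.03 (adjusted p = 2.78e-07), the latter with a spread of about 2 among OS arrays. Pparg, the master regulator of fat cells, stood at 2.42, 2.11 and 3.001 in OS-treated MEFs and at 1.90, 1.65 and 1.90 in PGCs, and this was not called (0.69, adjusted p = 0.0163), except with spike-in scaling (1.94).

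Genes of cell division were lower in part. Of 34 tested, 20 were lower and 2 higher (median difference -1.41), against 36.4% and 24.5% of all genes. With spike-in scaling 10 were lower and 11 higher, so only part of this holds beyond the scaling. Under every scaling 9 were lower, among them the spindle checkpoint kinase gene Bub1 (-6.22), the replication licensing gene Mcm5 (-4.32) and the proliferation marker Mki67, at 1.41, 1.35 and 1.29 against 4.69, 4.50 and 4.75 (-3.30, adjusted p = 1.83e-09). Of 22 CDK inhibitors, D cyclins and p53 targets 19 were higher and 1 lower (median difference 3.005). Against control MEFs, with the same OS arrays, 3 of 22 were higher and 2 lower (median difference 0.006). Cdkn1a (p21), which arrests the cycle, stood at 4.20, 4.28 and 4.33 in control MEFs, at 3.46, 3.33 and 3.37 in OS-treated MEFs and at -3.47, -3.39 and -3.54 in PGCs. It differed from the PGCs by 6.85 (standard error 0.0781, adjusted p = 2.21e-12) and from control MEFs by -0.88 (adjusted p = 3.77e-06, limma). The death receptor gene Fas differed by 9.86, Ccnd1 (cyclin D1) by 5.97 and Trp53 itself by 3.05.

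Metabolic genes separated by pathway. Glycolytic genes were higher in 19 of 23 cases (median difference 2.68), with Ldha, which makes lactate, at 3.86, 3.67 and 3.72 against -1.58, -1.51 and -1.90, and Pfkfb3, which activates phosphofructokinase, higher by 5.86. Eno3 (-1.92) and Pfkm (-1.05) were lower but not called with spike-in scaling (-0.68 and 0.19). Genes of mitochondrial respiration depended on the scaling. With spike-in scaling 12 of 24 were higher and 0 lower (limma, median 1.004), and by the 75th percentile 17 were not called (median difference -0.24), 5 were lower, 0 of these under every scaling, and the coactivator gene Ppargc1a (4.92) and the cytochrome oxidase gene Cox8a (2.88) were higher. Genes of cholesterol and fatty acid synthesis were higher in 20 of 27 cases and lower in 1, with the desaturase gene Scd1 at 8.43 and the acetyl-CoA carboxylase gene Acaca at -2.81.

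**Figure D4:**
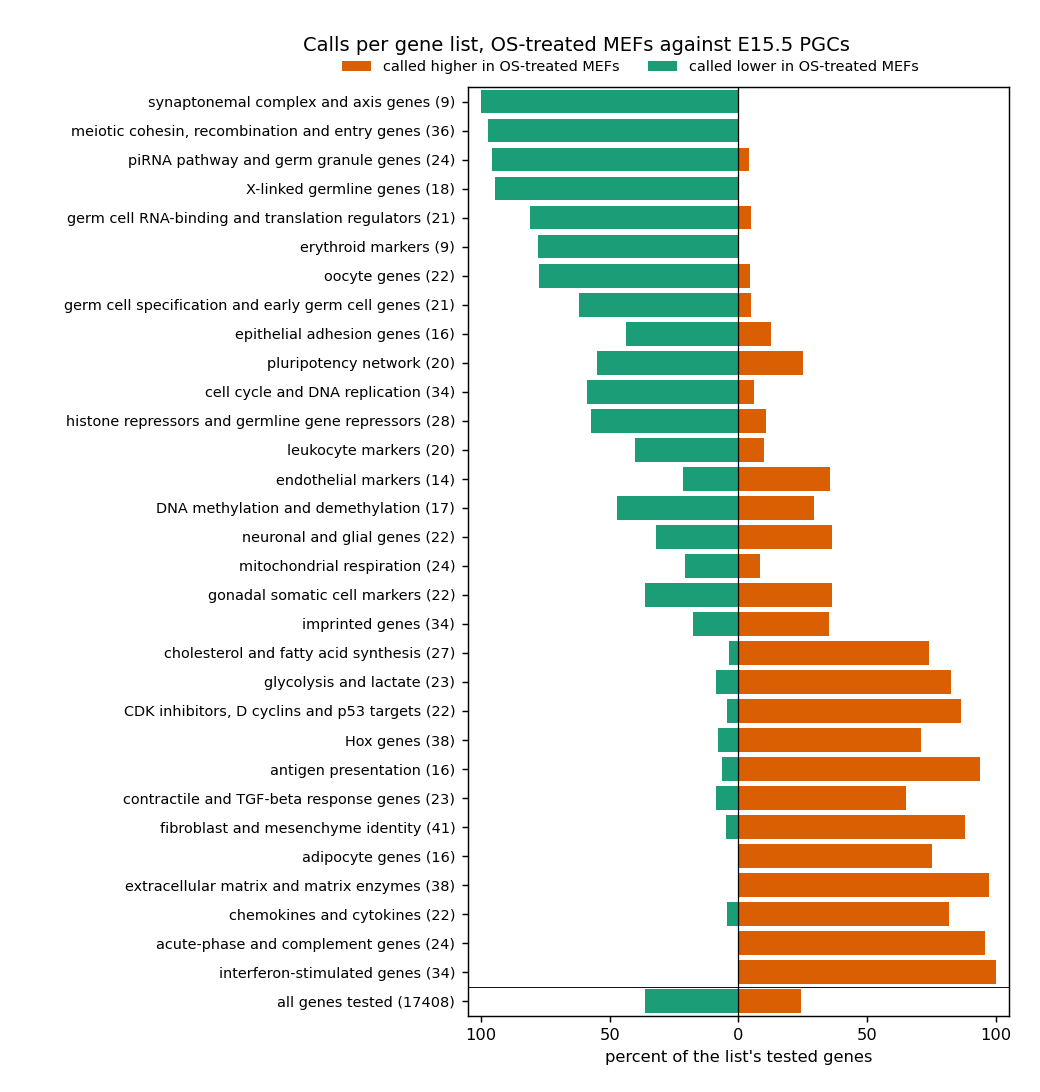
Percent of the genes tested in each list with at least 9 genes tested, ordered by median difference, that were called higher (right) or lower (left) in OS-treated MEFs than in E15.5 PGCs at the 75th percentile scaling, with the number tested in brackets and all 17408 genes tested in the bottom bar. The top 5 lists are germ cell lists, with up to all 9 genes lower, and interferon-stimulated genes at the bottom with all 34 higher.

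Imprinted genes, whose parental methylation is erased in PGCs, were higher in 12 of 34 cases, lower in 6 and not called in 16 (median difference 0.52). Of all genes 24.5% were higher and 36.4% lower. With spike-in scaling 21 imprinted genes were higher and 3 lower (median 1.77). Meg3, a maternally expressed noncoding RNA, stood at 3.48, 3.42 and 3.49 in OS-treated MEFs and at -0.23, 0.07 and 0.16 in PGCs, and Igf2, a paternally expressed growth factor, at 0.01, -0.39 and -0.00 against -2.42, -3.29 and -3.09. Both were higher, by 3.46 and 2.81. Rasgrf1 (-4.56) and Zdbf2 (-4.22), also paternally expressed, were lower. Plagl1 was higher by 4.37 at its brightest probe and lower at another (-2.44), so its direction depends on the probe. The same held for Gnas (1.65 and -1.54) and, among the contractile genes, for Tpm1 (4.64 and -2.29). Each is counted as higher by its brightest probe. Of 2797 called genes with a further probe tested, every further probe gave the same call in 2061 and some probe gave the opposite call in 84.

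The X chromosome stood apart from the autosomes. Of 679 X-linked genes tested 49.0% were lower in OS-treated MEFs, against 35.9% of 16718 autosomal genes, and the median difference was -1.19 against -0.55. The X median minus the autosomal one was -0.64 with either the 75th percentile or the spike-ins, -0.54 with quantile normalization, and -0.41 over the 559 X-linked genes well above background on all 6 arrays. For control MEFs minus PGCs, with the same PGC arrays, it was -0.62. Xist, the noncoding RNA of X inactivation, stood at -7.30, -7.55 and -7.72 in control MEFs, at -5.18, -4.37 and -3.94 in OS-treated MEFs and at -3.98, -3.65 and -4.07 in PGCs. OS-treated MEFs did not differ from PGCs by the test (-0.60, interval -1.23 to 0.04, and 0.65 with spike-in scaling). The OS cells are male and the PGCs female, so that sex, cell type and treatment cannot be told apart here.

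**Figure D5:**
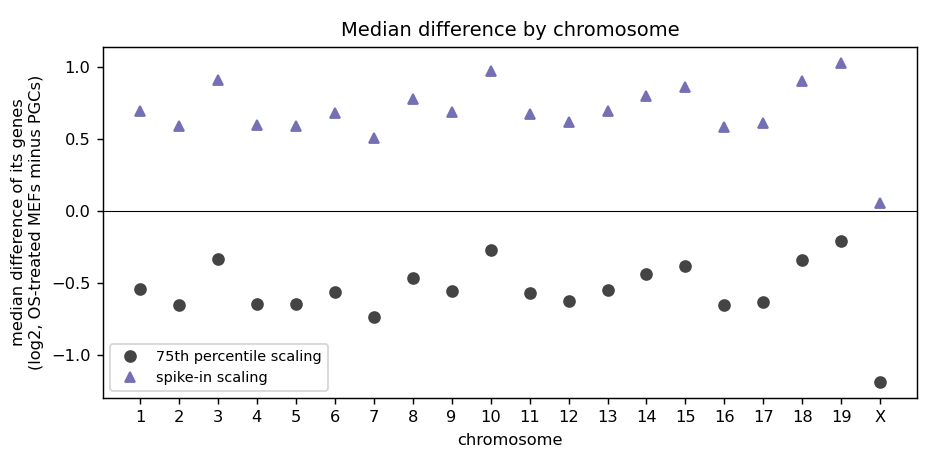
Median difference of the genes tested on each chromosome (vertical axis, log2, OS-treated MEFs minus E15.5 PGCs), for the 75th percentile scaling (circles) and the spike-in scaling (triangles). The X chromosome lies below all autosomes under both, at -1.19 by the 75th percentile against -0.55 for the autosomes together.

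Some markers of other cells of the genital ridge and of blood were well above background on the PGC arrays. Of 22 gonadal somatic markers 8 were lower in OS-treated MEFs, the same share as the 36.4% of all genes, and 8 higher (24.5% of all genes), and with spike-in scaling 6 were lower and 12 higher. The granulosa and Sertoli cell gene Amhr2 stood at -4.91, -4.64 and -4.51 on the OS arrays and at 1.54, 1.74 and 1.15 on the PGC arrays (-6.16, adjusted p = 4.01e-10), Wt1, a gonadal transcription factor, at -3.24, -3.22 and -3.95 against 0.44, 0.69 and -0.17, and Gata4, another, at -6.57, -5.82 and -5.81 against -2.02, -1.64 and -2.07. All 3 genes were above background on every PGC array, as were 16876 of the 17408 genes tested. They come from the lower part of the list, while the gonadal marker Foxl2 was not called (0.30) and 8 markers were higher. The erythroid genes Hba-a2 (-5.43) and Hbb-bt (at least 414-fold) were lower in OS-treated MEFs, as were 7 of 9 erythroid genes tested. The summed level of the 23 gonadal markers with a probe was 5.83 to 6.09 on the OS arrays and 4.89 to 5.08 on the PGC arrays. That of the erythroid markers was -2.53 to -1.83 and 2.77 to 3.65. Of 20 leukocyte markers 8 were lower and 2 higher (3 and 4 with spike-in scaling), close to the 36.4% lower of all genes, with Cd52 (above background on 2 OS arrays) at -5.11. The part of such cells in the differences was not tested.

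OCKS-treated MEFs were set against the PGCs in the same way. Against the same PGC arrays 4210 of 17368 genes were higher in OCKS-treated MEFs and 6370 lower. Side by side, the differences from PGCs with OS and OCKS were -10.71 and -10.38 for Sycp3, -6.71 and -7.01 for Dazl, -2.63 and -2.11 for Tex19.1, -0.00 and 0.37 for Rhox5 and 14.52 and 13.99 for Saa3. In the direct comparison of OCKS-treated with OS-treated MEFs 0 of 15707 genes were called by limma, 2909 had an unadjusted p under 0.05, and 15 passed an adjusted p under 0.05 with 2-fold. Pou5f1 lay -3.88 from the PGC level with OCKS and 1.06 with OS, and the direct difference of OCKS minus OS was -4.94 (adjusted p = 0.00111, limma), just outside the threshold.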

How the data were processed

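RNA was labelled with Cy3 and hybridized to single-colour Agilent mouse arrays. The authors deposited, per array, the scanner's spot intensity after background subtraction, with no normalization between arrays, and for the series a table of values in log2 units. Of its 12 columns, 10 match the scanner data of their arrays and 2 were not used. The paper names Benjamini-Hochberg correction and no normalization or test.

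Out of 39429 noncontrol probes, 83 were dropped for uneven spots. RefSeq accessions gave names to 25992 probes and 19718 genes (5249 with several probes), and 13354 probes stayed unnamed. The intensity was taken to log2 minus the 75th percentile of the array. A model of 4 group means was fitted to all 12 arrays without covariates in limma 3.58.1 under R 4.3.3, and adjusted p-values run over all genes tested. Other steps used Python 3.11.15 with numpy 2.4.6 and pandas 2.3.3, and plots matplotlib 3.10.9. The fit was tested on simulated data. The number of arrays limits the precision.

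The comparison, the 33 gene lists (761 genes, 735 with a probe) and the tests were chosen with earlier results of these data known. The genes named are those of the paper, the 10 higher and 10 lower with the largest difference (or bound), up to 6 called and, for germ cell lists, up to 4 uncalled members per list, and Xist and Y-linked genes. Symbols of predicted genes and clones were left out of the 10 higher and 10 lower. Others were chosen after their values were seen. The alternatives were 5 other scalings, other filters, probe rules, thresholds and fits, the deposited table, and leaving out each OS or PGC array.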

Additional observations from a re-analysis of the deposited data

How the results depend on the processing

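The numbers of genes higher and lower were 4260 and 6330. They moved by more than 1.5 times with spike-in scaling (7103 and 2773) and, for the lower genes, with a 4-fold minimum (3671). With every probe as a feature the counts were 6685 and 12585. These are probes, unnamed ones included, and cannot be set against numbers of genes. Under the other alternatives both counts stayed within 1.5 times. One of these, the deposited table (4068 and 4833), held only 1 usable PGC array, which was assumed to vary like the other groups. Leaving out each OS or PGC array in turn gave 4124 to 4249 genes higher and 5923 to 6193 lower. With the replicate block, 4195 genes were higher and 6232 lower. Deviations of same-numbered OS and PGC arrays correlated at 0.180, 0.097 and 0.094, and those of other pairs at -0.126 to 0.029. Every array thus correlated best with the one of its own number. The labels give such arrays no more than the same number, and what lies behind the correlation was not tested.

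For 28 genes followed through 470 values, 448 kept their direction and call, 7 lost the call and 2 gained it. Directions turned 13 times, in genes near the germ cell level. Rhox5 was 0.09 with quantile normalization, 0.082 with normexp, 0.58 with median scaling, 0.11 with the 75th percentile over detected probes, 1.24 with spike-in scaling, and between -0.10 and 0.088 when arrays were left out. Mnd1 was 0.23 with median and 0.89 with spike-in scaling, and with spike-in scaling Nanos3 was 0.10 and Prdm1 0.42. The cause was not tested. Signals near the scanner's floor limit what can be said of dim genes, for which folds are lower bounds.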

Other observations

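Of 22 neuronal and glial genes tested, 8 were higher in OS-treated MEFs than in E15.5 PGCs and 7 lower, against 24.5% and 36.4% of all genes, and the median difference was -0.25 against -0.57. With spike-in scaling 9 were higher and 4 lower (median 0.99 against 0.67). The growth cone gene Gap43 was higher by 9.56 on the log2 scale, the glial calcium-binding gene S100b by 6.62 and the microtubule gene Stmn2, above background on 1 PGC array, by 6.56. The neuronal RNA-binding gene Elavl3 (at least 389.8-fold) and the splicing factor gene Rbfox3 (at least 30.1-fold) were lower and not above background on any OS array, and the synaptic vesicle gene Syn1 was lower as well (-5.71). Of 14 endothelial markers 5 were higher and 3 lower, against 24.5% and 36.4% of all genes (5 and 1 with spike-in scaling). The VEGF receptor gene Flt1 was higher by 4.15.

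In the deposited value table, the columns of PGC replicates 2 and 3 correlated with the scanner output of their arrays at 0.013 and 0.52, and the table was used without them.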
